A study of Mus musculus with 20 samples.

Results

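Granule-rich neutrophils were a small population inside the TAM (tumor-associated macrophage) libraries of the series. They were chosen cell by cell, from corrected transcript counts per cell, as cells with at least 300 counts of S100a8 plus S100a9, at most 1 count of Csf1r and at least 20 counts of Ngp, Camp and Ltf summed. These gates took 212 of 10885 tumor cells, with 25, 74, 48 and 65 cells in the libraries numbered 2, 3, 4 and 5. The whole series holds 31683 single cells, of which the rest came from culture.

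The 4 tumor libraries came from TAM that the study purified by FACS from tumors of mice given 4T1.2 cells under the skin. 4T1.2 is a mammary carcinoma line that grows in BALB/cJ mice, and the study used young female mice. All 4 libraries carried the tumor and no other treatment or allele, so the tumor part of the series has no untreated group. The labels describe every tumor cell as a macrophage, and the libraries could not be matched to the replicate numbers of the labels, so they are named here by the number in the table. The comparison cells, called other neutrophils, passed the same S100a8 plus S100a9 and Csf1r gates but held fewer than 20 counts of Ngp, Camp and Ltf. There were 4075 of them, 868 to 1273 per library.

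Neutrophils are built in the BM, and their granules are filled in a fixed order as the cells mature. Primary (azurophil) granules with myeloperoxidase and elastase are filled first, at the promyelocyte stage. Specific granules with lactoferrin, cathelicidin, neutrophilic granule protein and lipocalin 2 follow in myelocytes and metamyelocytes, and gelatinase granules come last. Transcripts of granule proteins decline as the cell matures and leaves the BM, so a cell that still holds them is usually read as immature. The factor C/EBPε, encoded by Cebpe, drives the specific granule program, and PU.1 acts across the myeloid lineage.

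The upstream sequences of the 3 granule genes of the gate and of the 3 further markers that name the cells are printed because these 6 genes were high in the same cells. Each run is the 250 bases before an annotated transcript start (RefSeq, GRCm38.p6, the assembly of mm10), 5′ to 3′ along the gene. The Cd177 start lies inside the annotated gene, so 23 bases of its window fall in the gene span. Capitals mark the C/EBP core TTGCNNAA, the PU.1 core GAGGAAGT or the TATA core TATAAA on either strand.
Ngp, chr9:110419558-110419807 (plus strand): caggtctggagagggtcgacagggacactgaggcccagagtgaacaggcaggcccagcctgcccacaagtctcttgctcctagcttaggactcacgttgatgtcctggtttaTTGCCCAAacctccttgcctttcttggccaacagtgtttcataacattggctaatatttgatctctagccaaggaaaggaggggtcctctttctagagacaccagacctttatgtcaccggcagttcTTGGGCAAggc
Camp, chr9:109849457-109849706 (minus strand): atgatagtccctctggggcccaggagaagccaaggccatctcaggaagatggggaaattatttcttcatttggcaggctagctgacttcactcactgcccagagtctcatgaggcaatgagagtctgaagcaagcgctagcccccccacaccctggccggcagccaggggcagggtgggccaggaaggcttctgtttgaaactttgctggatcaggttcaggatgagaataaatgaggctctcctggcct
Ltf, chr9:111019042-111019291 (plus strand): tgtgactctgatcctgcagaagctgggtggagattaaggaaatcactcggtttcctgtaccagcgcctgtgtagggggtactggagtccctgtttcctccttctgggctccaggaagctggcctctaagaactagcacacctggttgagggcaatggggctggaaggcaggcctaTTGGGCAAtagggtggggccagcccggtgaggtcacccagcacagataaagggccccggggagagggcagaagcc
Lcn2, chr2:32387740-32387989 (minus strand): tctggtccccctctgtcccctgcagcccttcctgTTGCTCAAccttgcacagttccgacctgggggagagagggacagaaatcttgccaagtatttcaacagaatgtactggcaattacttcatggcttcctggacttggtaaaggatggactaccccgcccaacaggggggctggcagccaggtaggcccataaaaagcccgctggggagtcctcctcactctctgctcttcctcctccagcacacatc
Ly6g, chr15:75155011-75155260 (plus strand): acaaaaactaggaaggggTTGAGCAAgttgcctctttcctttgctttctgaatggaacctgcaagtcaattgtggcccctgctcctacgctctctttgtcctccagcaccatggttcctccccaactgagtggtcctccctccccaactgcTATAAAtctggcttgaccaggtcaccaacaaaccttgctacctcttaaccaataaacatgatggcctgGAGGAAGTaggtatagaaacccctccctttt
Cd177, chr7:24760312-24760561 (minus strand): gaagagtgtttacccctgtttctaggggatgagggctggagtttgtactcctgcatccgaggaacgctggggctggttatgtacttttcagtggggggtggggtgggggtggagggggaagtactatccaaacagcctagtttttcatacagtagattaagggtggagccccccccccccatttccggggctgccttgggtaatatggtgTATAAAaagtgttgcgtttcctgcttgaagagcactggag

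The C/EBP core was found in the windows of Ngp, Ltf, Lcn2 and Ly6g, and not in those of Camp and Cd177. The Ngp window held it 2 times, with first bases at -138 and -11 from the start. The cores of Ltf, Lcn2 and Ly6g began at -75, -216 and -232. Among 32851 promoter windows of the same length, 9.56% held this core, 2.44% held the PU.1 core and 12.4% held the TATA core. Of the further specific granule genes, the Mmp8 window held a C/EBP core at -19 and a PU.1 core at -221, the Olfm4 window held a PU.1 core at -81, and the Chil3 window held none of the 3. The Ly6g sequence belongs to the first of 2 annotated starts, and the window of the second start held no C/EBP core. These matches are descriptions of letters and not of binding. Ngp (110419808 to 110423012), Camp (109847377 to 109849456) and Ltf (111019292 to 111042766) lie near each other on chromosome 9, while Lcn2 lies on chromosome 2, Cd177 on chromosome 7 and Ly6g on chromosome 15.

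Granule-rich cells made up 0.786%, 3.19%, 2.01% and 2.17% of all cells in libraries 2 to 5, with a mean of 2.04% ± 0.986 (SD, n = 4). The share in library 2 had an exact binomial 95% interval of 0.509 to 1.16%, below the intervals of the other 3 libraries, which together ran from 1.49 to 3.99%. As a share of all cells inside the S100a8 plus S100a9 and Csf1r gates, they made up 2.70%, 6.68%, 5.24% and 4.86%. Library 2 was again the lowest and library 3 the highest, but the interval of library 2, 1.76 to 3.96%, overlapped those of libraries 4 and 5, which began at 3.89 and 3.77%. These intervals cover counting error only. The share of each library depends on the sort and on cell recovery, and no untreated tissue was measured.

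**Figure D1:**
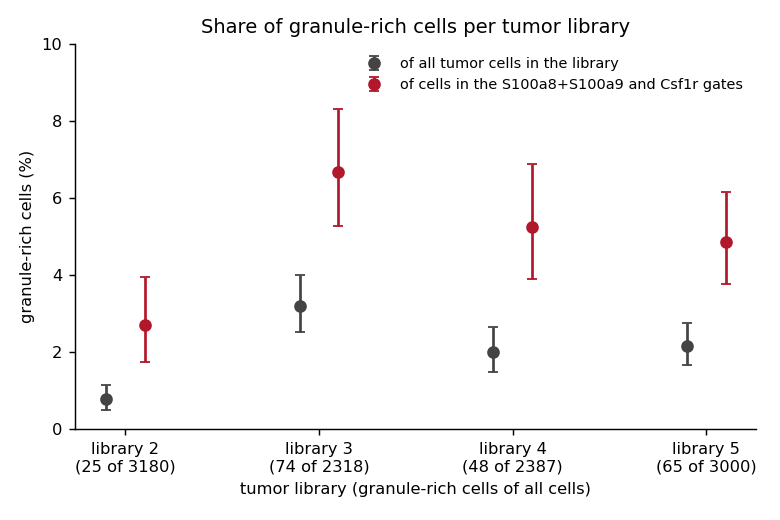
Share of granule-rich cells in each of the 4 tumor libraries, in percent of all cells (grey) and of the cells inside the S100a8+S100a9 and Csf1r gates (red), with exact binomial 95% intervals. Library 2 sits lowest at 0.786% and 2.70%, and library 3 highest at 3.19% and 6.68%.

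The gate genes describe the choice and carry no test. Ngp averaged 129.5, 161, 145 and 135 corrected counts per granule-rich cell in libraries 2 to 5, against 0.408 to 0.710 in other neutrophils. Camp, which encodes the cathelicidin precursor, averaged 34.1, 59.2, 46.2 and 40.9, against 0.0122 to 0.0464. Ltf, which encodes lactoferrin, averaged 33.7, 43.5, 40.1 and 33.6, against 0.0367 to 0.0677. Ngp was present in all 212 cells and was the highest of the 3 in 208, and it alone reached 20 counts in 208, which were not all the same cells. Camp reached 20 counts in 84 cells and Ltf in 104. All 3 genes were detected in 157 cells, and Ltf was at 0 in 39. The summed count ran from 20 to 1099 with a median of 124. S100a8 and S100a9, which encode the calprotectin subunits, had a median sum of 3371 in granule-rich cells and 1010 in other neutrophils, although both sets passed the same minimum.

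The threshold on the summed Ngp, Camp and Ltf count cut through a graded population. The 31 cells with summed counts of 20 to 29 averaged 70.0 counts of Lcn2, 5.87 of Cd177 and 5.13 of Ly6g. The 71 cells just outside, at 10 to 19, averaged 55.4, 3.99 and 3.87. The S100a8 plus S100a9 minimum admitted 1 cell at 300 to 399, and 0 cells with enough granule counts lay at 200 or more but under that minimum. The Csf1r limit admitted 23 cells with 1 count and kept out 8 cells with more.

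Lcn2, Ly6g and Cd177, the markers that the gates did not use, all were higher in granule-rich cells in every library. Lcn2, which encodes the siderophore-binding protein lipocalin 2, averaged 108, 111, 95.3 and 104.6 counts in libraries 2 to 5. In other neutrophils it averaged 11.7, 15.4, 13.3 and 14.7, so the groups were far apart. On the log2(mean + 0.1) scale the difference was 2.92 (SE 0.13, adjusted p = 2.35e-06 by limma over all tested genes). Ly6g, the surface protein recognised by the antibody that defines mouse neutrophils, averaged 9.32, 9.12, 7.15 and 9.60 against 0.562, 0.712, 0.662 and 0.666. Its difference was 3.56 (SE 0.14, adjusted p = 1.43e-06). Cd177, a surface glycoprotein of neutrophils, averaged 8.40, 9.08, 8.19 and 8.83 against 0.428, 0.565, 0.573 and 0.451, a difference of 3.86 (SE 0.13, adjusted p = 5.51e-07). Cd177 was detected in 97.6% of granule-rich cells and Ly6g in 92.9%. Detection in tumor macrophages, marked by C1q genes and expected to lack both, was 0.663% and 1.33% at a similar median depth of 8282.5 corrected counts per cell, against 8645 in granule-rich cells. Ngp, Camp and Ltf were fixed by the choice, so the name of these cells as neutrophils rests on Lcn2, Ly6g and Cd177. These markers were listed with earlier results of these data known, so they describe the name and do not test it. The samples are labelled as macrophages. In other neutrophils Lcn2 was detected in 78.9%, Ly6g in 20.8% and Cd177 in 20.2% of cells. The name of that comparison group rests on the S100a8 plus S100a9 and Csf1r gates. Maturity was read from transcripts only, in the groups below.

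**Figure D2:**
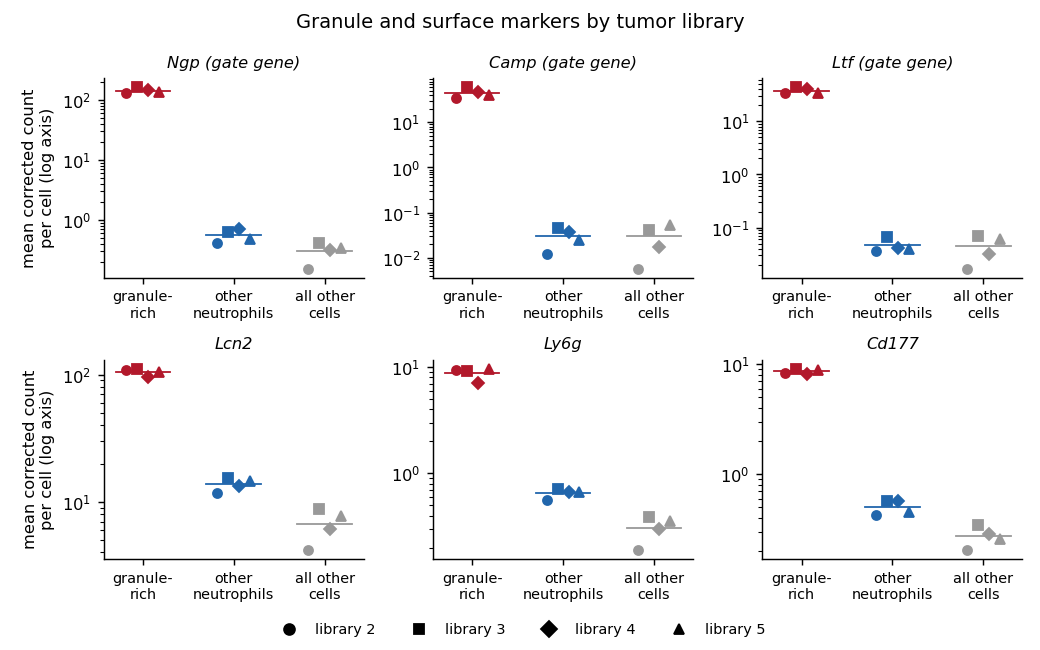
Mean corrected count per cell (log axis) of the 6 markers in granule-rich cells (red), other neutrophils (blue) and all other tumor cells (grey), with 1 point per library and a line at the mean of 4 libraries. Ngp, Camp and Ltf set the groups, and Lcn2, Ly6g and Cd177 did not; all 4 red points lie above all other points in each panel.

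Against all tumor cells outside the population the same markers stood further apart, since many of those cells are of other types. In the 10673 other cells Lcn2 averaged 6.56, Ly6g 0.299 and Cd177 0.265 counts. Much of this wider contrast is set by the gates, so it was not tested, and the results that follow use other neutrophils.

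Over 4267 tested genes, with the gate genes left out, 555 (13%) were higher in granule-rich cells than in other neutrophils and 2353 (55.1%) were lower, by limma on library means paired within each library. The calls had the same direction in all 4 libraries for 535 of the higher and 2278 of the lower genes. The tested genes were not used to choose the cells, but both groups were split on a measured level in the same cells, so the p-values speak of how steadily a difference returned over 4 libraries and not of a treatment. Lower genes were the majority, and the gate genes took a larger share of the counts. The 6 gate genes held 39.5 to 42.3% of the corrected counts of granule-rich cells and 14.8 to 15.8% of those of other neutrophils, which left a mean of 5003 to 5224 and 6472 to 6597 counts for all other genes. The median difference over all tested genes was -0.45. It was -0.57 when each cell was scaled to the same total, and -0.22 when each cell was scaled on the counts outside the gate genes. With this last scaling 902 genes were higher and 1730 lower of 5346 tested, and the calls kept 555 of 555 higher genes and 1532 of 2353 lower ones, with 21 of the latter changing sign. Scaled to the same total, 465 of the 555 higher and 2353 of the 2353 lower genes kept their call. Each difference below is read against these medians.

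The 12 largest higher differences outside the gate were those of Serpinb1a, Ifitm6, Cd177, Chil3, Ly6g, Aldh2, Adpgk, Anxa1, Ceacam10, Lcn2, G6pdx and Cybb. Serpinb1a, which encodes an inhibitor of neutrophil serine proteases, averaged 2.96, 4.39, 3.77 and 3.48 counts against 0.0533, 0.0812, 0.0691 and 0.0503. The difference was 4.51. Serpinb1a passed the filter on low means (at least 0.1 counts over both groups) only through the granule-rich cells, so its adjusted p of 0.000679 is from the limma fit with no filter, over 14723 genes. Ifitm6, an interferon-induced transmembrane family gene, averaged 63.0, 62.7, 50 and 58.4 against 3.18 to 4.42, a difference of 3.88 (adjusted p = 1.47e-06). Anxa1, which encodes the anti-inflammatory protein annexin A1, averaged 28.6, 39.3, 35.4 and 32.9 against 3.23 to 4.76, a difference of 3.06. The 12 genes were picked for large differences in the same direction in all 4 libraries, so their library means were set apart largely by the choice. Aldh2, which encodes mitochondrial aldehyde dehydrogenase, differed by 3.30, Adpgk, an ADP-dependent glucokinase, by 3.11, Ceacam10 by 2.96 and G6pdx, the entry enzyme of the pentose phosphate pathway, by 2.76.

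**Figure D3:**
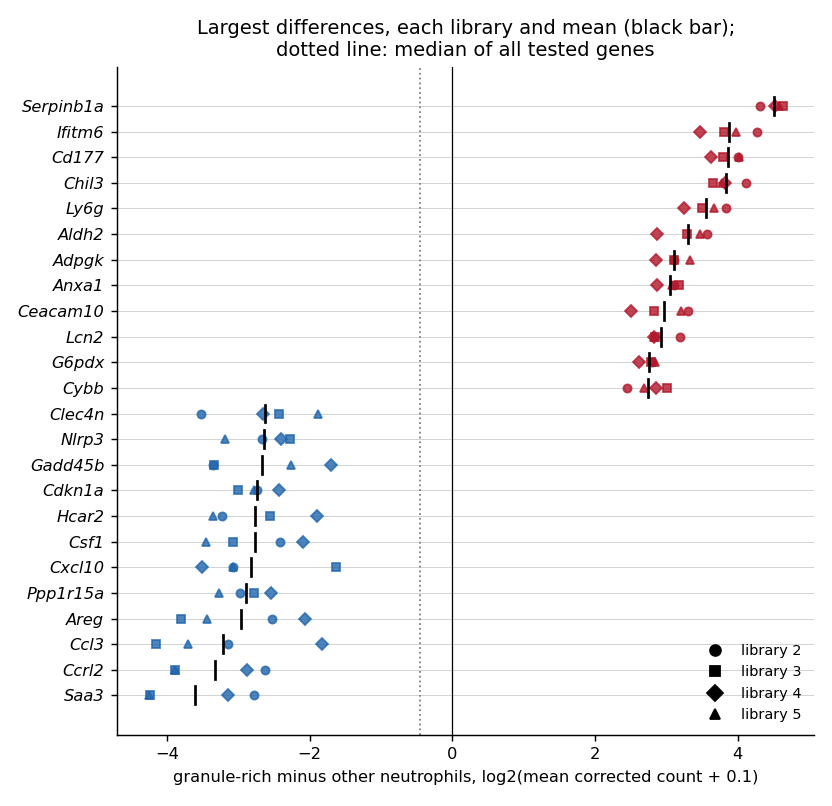
Difference between granule-rich cells and other neutrophils on the log2(mean corrected count + 0.1) scale for the 12 largest higher (red) and 12 largest lower (blue) genes outside the gate, with 1 point per library and a black bar at the mean. The higher genes lie between 2.75 and 4.51 with narrow spread, the lower genes between -3.61 and -2.62 with wider spread, and the dotted line marks the median of all tested genes at -0.45.

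Of the specific granule genes beside the gate genes, 9 were tested. Chil3 and Orm1 averaged less than 0.1 counts in other neutrophils and passed the filter on low means only through the granule-rich cells, so they are left out of the count. The other 7 were above that level in both groups, and 7 of 7 were called higher, where 13% of all genes were. Chil3, which encodes a chitinase-like protein, averaged 2.20, 2.15, 1.96 and 1.58 counts against 0.0228 to 0.0783, a difference of 3.84 (adjusted p = 0.00129 by limma with no filter). Pglyrp1, which encodes a peptidoglycan recognition protein, averaged 25.4, 28.6, 23.1 and 28.0 against 4.29 to 4.90, a difference of 2.50. Lyz2, which encodes lysozyme, averaged 21.9, 24.3, 19.6 and 20.4 against 7.01 to 8.10, a difference of 1.47. Hp, which encodes haptoglobin, differed by 1.39. Olfm4, a granule protein found in a subset of neutrophils, averaged 1.84, 1.61, 2.65 and 4.21 against 0.462 to 0.621, with library 5 highest. Orm1, an acute-phase glycoprotein, stayed low at 0.200 to 0.338 counts against 0.000967 to 0.00461. Mmp8, which encodes neutrophil collagenase, had the smallest difference of the list at 1.12, with 7.12, 6.58, 5.48 and 8.06 counts against 2.22 to 4.01.

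Of the 8 genes of the primary granule list, Mpo, Elane, Ctsg, Prss57 and Ms4a3 were near the floor of detection, while Serpinb1a, described above, Ctsc and Prtn3 were not. Mpo, which encodes myeloperoxidase, averaged 0 to 0.0417 counts in granule-rich cells, and Elane, which encodes neutrophil elastase, averaged 0 to 0.0462. Elane was detected in 1.89% and Mpo in 0.943% of the 212 cells. All other tumor cells held them in 0.965% and 0.778%, and the macrophages marked by C1q genes in 0.133% and 0.265%. Over all libraries they averaged 0.0236 and 0.0142 counts in granule-rich cells and 0.0269 and 0.0193 in all other tumor cells, so no excess over those cells is read. In other neutrophils they averaged less, 0.0029 and 0.0056 counts, with detection in 0.172% and 0.417% of cells. Both genes were too low to test. Ctsg, Prss57 and Ms4a3 were also below the filter, and Ms4a3 averaged 0 to 0.189 counts against 0 to 0.00236 in other neutrophils. Prtn3, which encodes proteinase 3, was higher, at 0.120, 1.01, 0.750 and 0.554 counts against 0.0389 to 0.132, a difference of 1.66 (adjusted p = 0.0304 by limma with no filter). In library 2 its mean lay inside the range of the other neutrophils, while its own comparison value there was 0.0389. Ctsc, the protease that activates the serine proteases, averaged 0.960 to 2.15 counts against 1.44 to 1.95, differed by -0.30 and did not pass the test (adjusted p = 0.175). Serpinb1a and Prtn3, the higher genes, averaged less than 0.1 counts in other neutrophils and passed the filter on low means only through the granule-rich cells, so no count over the list is read.

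Gelatinase granule genes were mixed. Of 5 tested, 3 were higher and 1 was lower, where 13% and 55.1% of all genes were, with a median difference of 0.51. Mmp9, which encodes gelatinase B, averaged 5.84, 5.97, 4.23 and 4.98 counts against 2.60 to 2.97, a difference of 0.92 (adjusted p = 3.75e-04). Mmp25, a membrane-bound metalloproteinase, averaged 0.440, 0.419, 0.5 and 0.446 against 0.0900 to 0.134, a difference of 1.44. Itgam, which encodes CD11b, one of the proteins on which TAM are sorted, averaged 3.25 to 4.26 against 2.40 to 2.71. Slc11a1, a metal transporter of granule and phagosome membranes, was lower, at 0.520 to 0.600 against 0.877 to 1.14, a difference of -0.77. Adam8 differed by -0.22 and did not pass the test.

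Genes of the NADPH oxidase, the enzyme complex that makes superoxide, were called higher in 5 of 6 tested, where 13% of all genes were. The other 1 did not pass the test. Cybb, which encodes the catalytic subunit, averaged 5, 7.36, 7.35 and 6.03 counts against 0.8344, 0.8288, 0.9309 and 0.8523, a difference of 2.75 (SE 0.13, adjusted p = 5.26e-06). Its partner Cyba averaged 11.1 to 11.7 against 6.892 to 7.597, a difference of 0.64. Rac2, the small GTPase of the complex, averaged 11.5, 10.7, 9.42 and 11.1 against 3.82 to 4.10, a difference of 1.40. The cytosolic subunits Ncf1 and Ncf4 differed by 0.98 and 0.48.

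The stefin A genes encode cysteine protease inhibitors and lie in a cluster of near-identical copies, so reads can be split between them and single members are uncertain. Of 7, 5 were higher and 1 was lower, where 13% and 55.1% of all genes were. BC100530 averaged 128, 112, 154 and 100.1 counts against 36.9 to 56.1, a difference of 1.38, and Stfa3 averaged 34.96, 26.3, 29.7 and 22.0 against 4.56 to 7.53, a difference of 2.19. Stfa2l1 was the lower member, at 17.9 to 22.4 against 25.9 to 30.4, and its difference of -0.48 was -0.15 and no longer called (adjusted p = 0.411) when cells were scaled outside the gate genes. Gm5483 differed by 0.35 and did not pass the test. With that scaling its difference was 0.67 and called (adjusted p = 0.0123 by limma).

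Of the transcription factors of granulocyte formation, Cebpe was higher and Runx1 was lower. Cebpe averaged 0.280, 0.473, 0.604 and 0.400 counts against 0.0338 to 0.0403, a difference of 1.93. It passed the filter only through the granule-rich cells, and its adjusted p was 0.00627 by limma with no filter. Runx1, a factor of early hematopoiesis, averaged 0.160 to 0.246 against 0.736 to 0.844, a difference of -1.64. Spi1, which encodes PU.1, averaged 3.46 to 4.48 against 3.19 to 3.39 and did not pass the test (adjusted p = 0.0775). With cells scaled outside the gate genes, Spi1 was called higher, with a difference of 0.63 (adjusted p = 0.00814 by limma). Gfi1 and Myc were at 0 in granule-rich cells of every library, and Cebpa and Myb averaged at most 0.0405. These 4 genes were too low to test.

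Genes of the G2/M list had no common direction before scaling. With scaling outside the gate genes 9 of 10 lay above 0, where 2039 of 5346 genes did. These 10 were not limited to genes above the filter level in both groups, so no direction of the list is read from them. Mki67, which marks cycling cells, averaged 0.0400, 0.365, 0.375 and 0.200 counts against 0.0400 to 0.0668. It was higher in 3 libraries and equal in library 2, with a difference of 1.02. Over all libraries Mki67 averaged 0.278 counts in granule-rich cells, 0.186 in all other tumor cells and 0.578 in the macrophages marked by C1q genes. Mki67 and Top2a, which differed by 0.52, averaged less than 0.1 counts in other neutrophils and passed the filter through the granule-rich cells. With no filter neither passed the test (adjusted p = 0.0943 and 0.0610 by limma). Stmn1 differed by 0.51, and Hmgb2 by 0.33, which was not called when cells were scaled to the same total (adjusted p = 0.279). Scaled outside the gate genes, Hmgb2 differed by 0.73 and was called (adjusted p = 0.00414 by limma). Tuba1b was lower by 0.73. Of the 5 G2/M genes above the filter level in both groups 2 were higher and 1 was lower, where 13% and 55.1% of all genes were, with a median difference of -0.02. Scaled outside the gate genes, Stmn1, Hmgb2, Tubb4b and Cenpa of these 5 differed by 0.96, 0.73, 0.295 and 0.18, and Tuba1b by -0.53. In all, 6 of 10 tested G2/M genes were then higher and 1 was lower, where 902 and 1730 of 5346 genes were. That count was not limited to genes above the filter level in both groups. Of 12 S phase genes 11 were below the filter, so no direction of that list is read. Pcna, the sliding clamp of DNA replication, was lower at 0 to 0.0923 against 0.196 to 0.260, a difference of -1.18. Pcna passed the filter only through the other neutrophils, and its adjusted p was 0.0225 by limma with no filter.

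**Figure D4:**
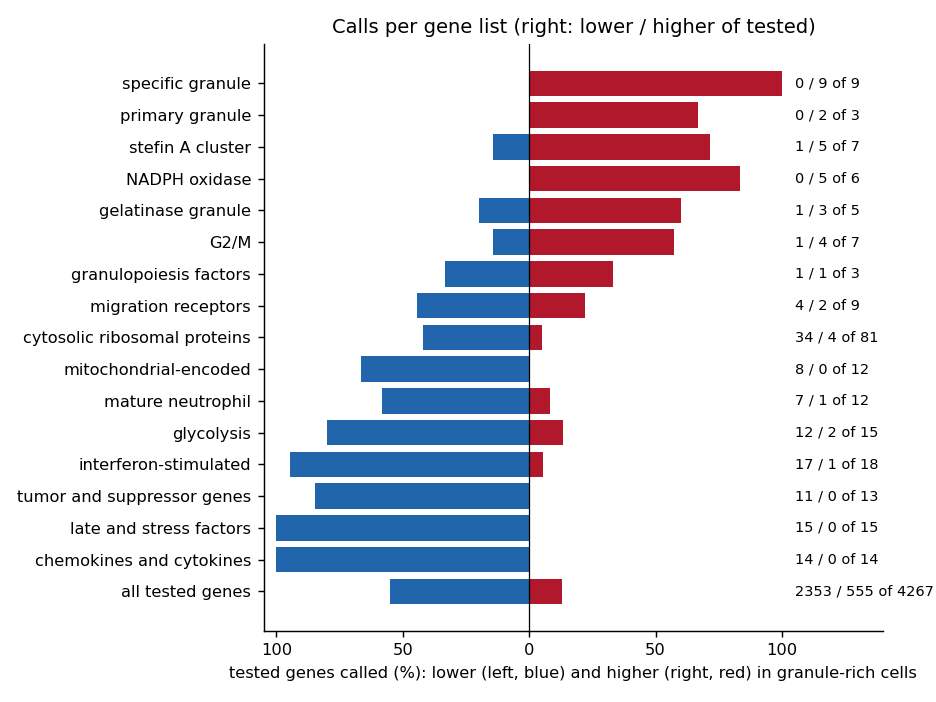
Share of the tested genes of each list that were called lower (blue, left) or higher (red, right) in granule-rich cells than in other neutrophils, with the counts on the right. These counts include the list members that passed the filter through 1 group only, among them 2 specific granule, 2 primary granule and 2 G2/M genes. Chemokine genes stand fully on the lower side, and the bottom bar gives all tested genes, of which 55.1% were lower and 13% higher.

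Of 12 genes of mature and activated neutrophils 7 were lower, near the 55.1% lower over all genes, 1 was higher and 4 did not pass. Their median difference was -0.65 against -0.45 for all genes, and with scaling outside the gate genes 6 were lower and 5 lay above 0, so only single members are described. Clec4d, a C-type lectin receptor, averaged 3.68, 1.92, 3.21 and 3.25 counts against 11.1 to 14.9, a difference of -2.14 (SE 0.13, adjusted p = 1.29e-05). Csf3r, which encodes the G-CSF receptor, averaged 3.24, 2.35, 2.46 and 3.49 against 5.46 to 5.91, a difference of -0.98. Il1r2, the decoy receptor of IL-1, differed by -0.93 and G0s2 by -0.97. Mxd1 differed by -0.56, and its -0.21 was not called (adjusted p = 0.239) when cells were scaled outside the gate genes. Cxcr2, the chemokine receptor by which neutrophils leave the BM, averaged 4.12, 3.41, 2.58 and 3.42 against 3.04 to 3.58, so the groups overlapped and the difference of -0.02 (SE 0.16) did not pass the test. Retnlg, which encodes a resistin-like protein, was the higher one, at 121, 98.9, 71.1 and 106 against 42.7 to 56.3, a difference of 1.02.

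Chemokine and cytokine genes were lower throughout. All 14 tested genes of this list were called lower, where 55.1% of all genes were, and their median difference was -2.28. Cxcl2, which encodes a ligand of CXCR2, averaged 36.9, 21.3, 44.8 and 38.8 counts against 196, 155, 169.7 and 171, a difference of -2.33 (SE 0.17, adjusted p = 1.87e-05). Ccl3, a ligand of CCR1, averaged 1.52, 0.527, 3.69 and 0.846 against 11.04 to 14.21, a difference of -3.21 with library 4 closest to the comparison. Il1b averaged 26.8, 9.01, 18.2 and 18.8 against 64.3 to 77.3, a difference of -2.07. Csf1, which encodes M-CSF, averaged 0.138 to 0.5 against 2.36 to 2.69, a difference of -2.76, and Ptgs2, which encodes COX-2, differed by -2.51. Ccrl2, a chemerin-binding receptor, averaged 0.959 to 2.64 against 14.4 to 16.9, a difference of -3.32. Osm had the smallest difference of the list, and its -0.51 was -0.31 and not called (adjusted p = 0.139) when cells were scaled outside the gate genes.

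The largest lower differences also held genes outside the chemokine list. Saa3, which encodes an acute-phase serum amyloid, averaged 2.56, 1.19, 2.81 and 1.11 counts against 18.2, 24.3, 25.7 and 23.0, a difference of -3.61 (SE 0.25, adjusted p = 1.80e-05). Nlrp3, the inflammasome sensor, differed by -2.63, Hcar2, a receptor of butyrate and niacin, by -2.76, and Areg, which encodes the growth factor amphiregulin, by -2.96. The stress response genes Ppp1r15a, Gadd45b and Cdkn1a differed by -2.89, -2.66 and -2.74. These 7 genes were picked for large differences in the same direction in all 4 libraries, so their library means were set apart largely by the choice.

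Of 15 late and stress-responsive transcription factors, 14 were above the filter level in both groups, and 14 of 14 were lower, where 55.1% of all genes were, with a median difference of -1.69. Egr1 averaged 0.920, 1.39, 1.90 and 1.22 counts against 6.90 to 8.11, a difference of -2.37. Junb averaged 4.28 to 5.604 against 20.1 to 24.2, a difference of -2.11, and Cebpb, which encodes the C/EBP family member of emergency granulopoiesis and activation, averaged 13.9 to 21.6 against 33.8 to 42.6, a difference of -1.13. The AP-1 genes Jun, Fos and Fosb differed by -1.16, -1.06 and -1.72. Ier2 and Cebpd, at -0.55 and -0.64, were no longer called when cells were scaled outside the gate genes (-0.24 and -0.38).

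Of 18 tested interferon-stimulated genes, 14 were above the filter level in both groups, and 13 of 14 were lower, where 55.1% of all genes were, with a median difference of -1.56. Isg15 averaged 2.80, 1.42, 2.69 and 2.29 counts against 12.9, 7.56, 10.5 and 11.7, a difference of -2.18 (SE 0.13, adjusted p = 1.05e-05). Rsad2, which encodes viperin, averaged 0.120, 0.162, 0.979 and 0.631 against 2.40 to 3.08, a difference of -2.57. Cxcl10 averaged 0.0417 to 0.200 against 0.504 to 2.41, a difference of -2.82, and its comparison value was lowest in library 3. Ifitm3 was the exception, higher at 16.2 to 21.0 against 12.8 to 14.8, a difference of 0.39 (adjusted p = 0.0201), and it was not called when cells were scaled to the same total. Scaled outside the gate genes, Ifitm3 differed by 0.74 and was called (adjusted p = 0.00466 by limma).

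Genes tied to suppressive and hypoxic myeloid cells in tumors were lower in 11 of 13 tested and higher in 0, where 55.1% and 13% of all genes were, with a median difference of -1.41. Cd274, which encodes PD-L1, averaged 0.440, 0.351, 0.458 and 0.969 counts against 3.15, 2.56, 3.24 and 3.25, a difference of -2.34 (SE 0.18, adjusted p = 2.31e-05). Hilpda, a lipid droplet gene induced by hypoxia, averaged 4.40, 4.34, 7.604 and 4.89 against 17.4 to 23.7, a difference of -1.97. Hmox1, which encodes heme oxygenase 1, differed by -1.99, and Clec4n, which encodes the receptor dectin-2, by -2.62. Arg1 averaged 0, 0.108, 0.938 and 0.108 against 0.288 to 0.788 and did not pass the test (adjusted p = 0.0684). Wfdc17 was abundant in both groups, at 63.4 to 78.9 against 66.8 to 86.6, and its difference of -0.04 did not pass.

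Glycolysis genes were lower in 12 of 15 and higher in 2, where 55.1% and 13% of all genes were, with a median difference of -0.74. Scaled to the same total, 12 were lower and 0 higher, and scaled outside the gate genes, 8 were lower and 3 higher. Hk2, which encodes the inducible hexokinase 2, averaged 0.200, 0.635, 0.896 and 0.708 counts against 3.04 to 4.65, a difference of -2.48. Pfkp differed by -2.09, Slc2a1, which encodes the glucose transporter GLUT1, by -1.59 and Tpi1 by -1.40. The 2 higher genes were Gpi1 and Hk3, with differences of 0.44 and 0.40, and neither was called when cells were scaled to the same total (adjusted p = 0.0619 and 0.0793). Gapdh differed by -0.31 and by 0.03 when cells were scaled outside the gate genes, so it had no stable direction.

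Of 9 tested receptors of migration 2 were higher and 4 were lower, near the 13% and 55.1% of all genes, so only single members are described. Ceacam1, an adhesion molecule, averaged 0.560 to 0.792 counts against 0.109 to 0.169, a difference of 1.62, and Itgb2, which encodes the β2 integrin chain, averaged 2.88 to 3.41 against 1.73 to 1.96, a difference of 0.76. Cxcr4, by which neutrophils are kept in or return to the BM, averaged 0.0800, 0.149, 0.0833 and 0.200 against 0.451 to 0.933, a difference of -1.59. Ccr1 and Itga4 differed by -1.16 and -1.28.

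Cytosolic ribosomal protein genes were called lower in 34 and higher in 4 of 81 tested, where 55.1% of all genes were lower and 13% higher. Their median difference of -0.25 turned to 0.13 when cells were scaled outside the gate genes, with 17 then higher and 6 lower. Their direction therefore depended on the scaling. Single members stood apart: Rps27 averaged 5.12 to 6.42 counts against 13.2 to 15.6, a difference of -1.28, and Rpsa averaged 7.84 to 11.3 against 4.27 to 5.08, a difference of 1.09, and both kept their direction with this scaling. Mitochondrial-encoded genes were lower in 8 of 12 (median difference -0.57), where 55.1% of all genes were, and in 1 of 13 with that scaling. mt-Co1 averaged 29.2 to 33.4 against 27.7 to 34.3, and its difference of 0.00 did not pass the test.

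Markers of other cell types were measured in both groups. The 7 macrophage markers summed to 3.56 to 5.52 counts per granule-rich cell and to 7.12 to 10.1 per other neutrophil, and Adgre1, which encodes the F4/80 antigen of the TAM sort, averaged 0 to 0.0270 against 0.0600 to 0.0919. Apoe and Cd68 differed by -1.13 and -1.29, so macrophage transcripts were lower in granule-rich cells, as were the chemokine, interferon and suppressive genes. Without cells holding at least 3 counts summed over the macrophage, B, T/NK and dendritic markers, 137 granule-rich cells and 1355 other neutrophils were left. In that set 511 genes were higher and 1929 lower. Of 75 named genes refitted there, 74 kept direction and call, and 1 kept its direction but was no longer called. The part of the macrophage transcripts in the single results was not tested beyond this. Monocyte markers were not in the sum, and 18.4% of granule-rich cells and 7.90% of other neutrophils held at least 3 counts of them. The 5 monocyte markers summed to 0.720 to 1.57 against 0.916 to 1.10, and among them Ly6c2, which has the near-identical neighbor Ly6c1 and is uncertain for that reason, was higher, at 0.600 to 0.919 against 0.102 to 0.160, a difference of 1.81 (adjusted p = 1.45e-05). Cd3d averaged 0.297 to 0.440 against 0.0426 to 0.0633, a difference of 1.71, and passed the filter only through the granule-rich cells, while Cd3e, Cd3g and Trbc2 were at 0 in every granule-rich cell. Of 6 dendritic cell markers 5 were at 0, B-cell markers summed to 0 to 0.292 and epithelial markers to 0 to 0.0135. Collagen genes came mainly from 1 cell of library 2, where their sum averaged 1.76, against 0.0208 in library 4. Leaving that cell out changed no call among the named genes.

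Within the population and just below its threshold the genes followed the granule count in different shapes. Libraries 3, 4 and 5 had at least 20 cells in each of 4 bins of the summed Ngp, Camp and Ltf count, while library 2 had only 12 and 13 in the upper bins and is left out. The bins use the gate genes, so their levels are described without a test. From 0 to 4, 5 to 19, 20 to 99 and 100 or more counts, Lcn2 went through 13.6, 49.9, 82.7 and 129 in library 3, 11.5, 48.8, 61.4 and 129 in library 4, and 13.4, 55.2, 73.1 and 133 in library 5. Cybb averaged 0.808, 0.916 and 0.848 at 0 to 4, 2.31, 2.29 and 2.16 at 20 to 99 and 10.6, 12.4 and 9.56 at 100 or more, so it was above its lowest bin before the last one. From 20 to 99 to 100 or more, Cebpe averaged 0.0690, 0.125 and 0.0323, then 0.733, 1.08 and 0.735. Serpinb1a averaged 1.34, 1.54 and 1.35, then 6.36, 6 and 5.41, and Chil3 0.483, 0.208 and 0.774, then 3.22, 3.71 and 2.32. Each of these 4 genes was highest in the last bin in all 3 libraries.

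Other genes peaked before the last bin. Mmp8 averaged 9.69, 7.75 and 10.2 counts at 20 to 99 in libraries 3, 4 and 5 and 4.58, 3.21 and 6.12 at 100 or more. Retnlg averaged 131, 132 and 161 at 5 to 19, 157, 103 and 161 at 20 to 99, and 61.8, 39.0 and 56.1 at 100 or more, near its 52.4, 38.1 and 47.6 at 0 to 4. Its level above other neutrophils was thus found mainly in the members with lower granule counts. Csf3r averaged 5.93, 5.67 and 5.92 at 0 to 4 and 1.27, 1.17 and 2 at 100 or more. Cxcl2 went from 159, 175 and 173 through 72.9, 73.0 and 106 and through 30.9, 68.5 and 55.3 to 15.1, 21.0 and 23.8. Mki67 averaged 0.103, 0.0417 and 0 at 20 to 99 and 0.533, 0.708 and 0.382 at 100 or more, so among the members its level was higher in the upper bin.

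**Figure D5:**
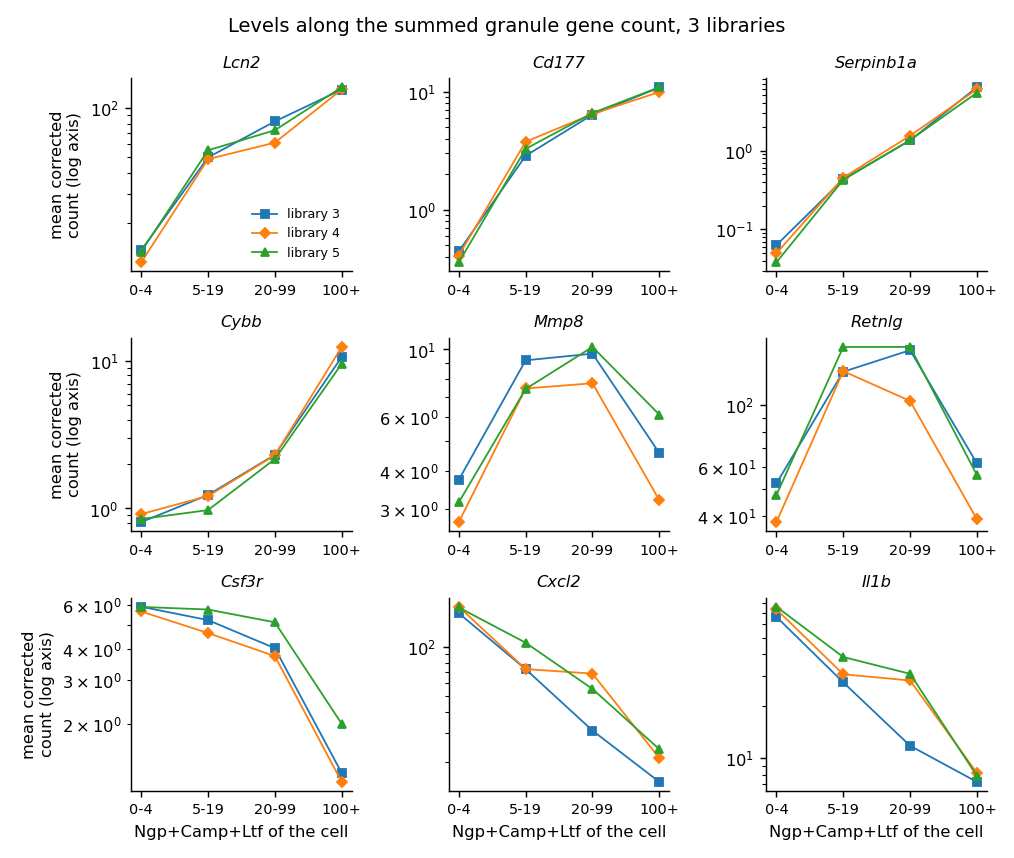
Mean corrected count per cell (log axis) of 9 genes in bins of the summed Ngp, Camp and Ltf count, 1 line for each of libraries 3, 4 and 5. Lcn2, Cd177, Serpinb1a and Cybb are highest at 100 or more, Mmp8 and Retnlg are higher at 5 to 99 than in the outer bins, and Csf3r, Cxcl2 and Il1b are lowest at 100 or more.

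The same gates were applied to the cultured macrophages of the series, which the rule did not use. B-MF, grown from BM B cells in medium conditioned by 4T1.2 cells, held 0 such cells in both libraries. Mo-MF, grown from monocytes in the same medium, held 52 and 32. Only 14 other neutrophils were found in each Mo-MF library, so no comparison was made there. The culture table was normalized on its own and to another depth, so its levels are given beside those of the tumor without a test. In Mo-MF replicates 1 and 2 the gated cells averaged 340 and 335 counts of Lcn2, 32.7 and 31.8 of Ly6g, 14.2 and 14.0 of Cd177, 10.6 and 11.8 of Cebpe and 24.7 and 34.0 of Chil3. Mki67 averaged 3.67 and 3.47 counts, Elane 3.17 and 13.5 and Mpo 2.13 and 7.38. Few cells carried the last 2, since Elane was detected in 13.5% and 12.5% and Mpo in 5.77% and 6.25% of the gated cells, while Mki67 was detected in 32.7% and 37.5%. Il1b averaged 0.154 and 0.0312.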

How the data were processed

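The authors sorted TAM from tumors, made droplet libraries, counted their transcripts by Cell Ranger, kept cells from 1000 detected genes and corrected the counts for depth by SCTransform. Values in the deposited tables are natural logs of (corrected count + 1), for 15333 genes in 10885 tumor cells and 15855 genes in 20798 cultured cells. All values returned to whole numbers within a tolerance of 1e-06 of 1 plus the count. Depth before the correction is unknown, and after it the median was 8610.5 to 8663.5 counts per granule-rich cell and 7522 to 7556.5 per other neutrophil in the 4 libraries. Of the granule-rich cells 4 were below 1000 detected genes, the lowest at 848. Because these are not raw counts, no count model was fitted. The ATAC-seq peak lists of B-cell precursors were not used here.

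Corrected counts were averaged over the cells of each group in each library, which gave 4 means per group. Genes with a mean of at least 0.1 were fitted on log2(mean + 0.1) with limma 3.58.1 (lmFit and eBayes, R 4.3.3), library as a block because both groups came from the same library, with Benjamini-Hochberg adjustment over all genes and calls at an adjusted p under 0.05. The fit was tested on simulated data. The study used a Wilcoxon test to find genes high in its cell clusters. Here library means were compared, because cells of a library are not replicates. Nothing beyond the study's text ties each library to one mouse, so p-values measure the spread between these libraries. A lower level of a gene and fewer cells expressing it were not told apart. The members and gene lists were chosen with earlier results of these data known. Named genes are the gate genes and markers, the 12 largest differences in each direction with the same sign in all 4 libraries, the 4 largest called per list, and list members given with their values, of which the last were run under the scalings only. Alternatives were other pseudocounts, filters, scalings, gates and variance models, no block, and each library left out. A further one left out cells with at least 3 macrophage, B, T/NK and dendritic marker counts summed. Of the lists, Ptx3, Slc27a2, Ackr1, Gzma, Epx, Prg2 and the 4 basophil or mast cell markers had no row in the table. Doublets were not removed and no caller was run. Between tumor libraries 13 barcodes were shared by 26 cells, of which 2 were granule-rich. Promoters came from RefSeq tables of GRCm38.p6. Tables were made in Python 3.11.15 with pandas 2.3.3, numpy 2.4.6 and scipy 1.17.1, and plots with matplotlib 3.10.9. Some measured genes of the lists are not reported here by name.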

Additional observations from a re-analysis of the deposited data

Results flagged for a closer look

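Library means of the named genes and the shares of granule-rich cells gave 164 groups of 4 values. Each group was examined for a library whose gap to its nearest neighbor exceeded Dixon's 95% critical value. Chance exceeds this value in about 1 in 20 groups. In 9 groups a library stood apart, near that rate, so the values are listed without a reading. Library 3 did so 6 times among other neutrophils: Ltf averaged 0.0677 counts there (0.0367 to 0.0415 in the other libraries), Cebpe 0.0338 (0.0393 to 0.0403), Egr1 8.11 (6.90 to 6.96), Ptgs2 3.14 (2.08 to 2.19), Cd274 2.56 (3.15 to 3.25) and Cxcr4 0.933 (0.451 to 0.514). In other neutrophils of library 2 S100a9 averaged 630.3 (654 to 657), and in those of library 4 Mmp25 averaged 0.134 (0.0900 to 0.0958). In granule-rich cells 1 value stood apart, Hilpda in library 4 at 7.604 (4.34 to 4.89).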

How the results depend on the processing

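Of 1410 differences, from 75 of the named genes (those with the largest differences overall and in each list) under 19 alternatives, 1398 kept direction and call, 12 kept their direction but were no longer called and 0 reversed. A filter of 0.5 left 1444 genes, of which 267 were higher and 897 lower. Scaling outside the gate genes, an alternative added after the data were seen, gave 902 higher genes. Leaving out each library in turn gave 458 to 542 higher and 1979 to 2258 lower genes and a share of granule-rich cells of 1.61 to 2.43%. Without the library block, which pairs groups of the same library, 563 genes were higher and 2328 lower. The calls lost among these 75 were of Stfa1, Mki67, Top2a, Tuba1b and 3 mitochondrial-encoded genes, and Top2a without library 4 had an adjusted p of 0.0511. Over all 228 tested list members, of which 165 were called, 6 higher calls were lost with scaling to the same total, and 45 lower calls with scaling outside the gate genes, where Gapdh and 7 ribosomal protein genes changed sign without a call. Library 2, with 25 granule-rich cells, gives the least precise means.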
